A study of Mus musculus with 8 samples.

Results

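The 10 genes described here encode transcription factors and a factor inhibitor that steer blood progenitors through myeloid differentiation: Spi1, Cebpa, Cebpb, Cebpd, Cebpe, Gfi1, Irf8, Klf4, Myb and Id2. They were taken as a given list, matched by gene symbol, and all 10 were found among the 52459 genes of the count and FPKM tables. RNA was sequenced from 8 libraries, each of splenic AE9a+ leukaemia cells from 1 moribund C57BL/6J mouse. AE9a is a truncated RUNX1-RUNX1T1 fusion protein that causes acute myeloid leukaemia in mice. Every library carries the retroviral AE9a and the doxycycline-inducible hairpin against Tet2 (genotype label RTA shTet2). The groups were secondary recipients without doxycycline that received PBS (Tet2 restoration, mice 21 and 23), secondary recipients on doxycycline that received ascorbate, labelled ASC (mice 28 and 30), 1 primary recipient on doxycycline (mouse 12), and secondary recipients on doxycycline that received PBS (Tet2 knockdown, mice 16, 17 and 19). Loss of doxycycline and return of Tet2 coincide, so they cannot be told apart. Primary recipients were lethally irradiated, were 6 to 8 weeks old at transplant and got 50000 AE9a+ cells with 500000 wild-type support marrow cells. The same cell numbers were passed to secondary recipients, whose age is not given in the sources used here, nor are the ascorbate dose, the promoters of the retrovirus and the way AE9a+ cells were collected from the spleen.

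As background, PU.1 (Spi1) is an ETS factor that opens myeloid enhancers and whose dose steers cells between progenitor, macrophage, neutrophil and erythroid fates. The C/EBP proteins take over in turn along the granulocyte path: C/EBPα (Cebpa) commits progenitors, C/EBPε (Cebpe) runs the late granule genes, and C/EBPβ and C/EBPδ (Cebpb, Cebpd) act in stress and inflammation. GFI1 is a repressor needed for neutrophils, IRF8 and KLF4 drive monocytes and dendritic cells, MYB keeps progenitors dividing and is shut down as they mature, and ID2 blocks E proteins. In human leukaemia with RUNX1-RUNX1T1, the fusion is known to lower CEBPA and to bind PU.1 and hinder it.

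Total counts ran from 18.1 to 34.2 M a library, and mitochondrial genes took 9.49% and 14.5% of counts in restored mice 21 and 23, 17.1% and 9.73% in ascorbate mice 28 and 30, 5.16% in the primary mouse and 9.09% to 11.4% in the PBS knockdown mice. Tet2 itself was at 14.1 and 23.1 CPM in restored mice 21 and 23, 13.7 and 11.7 CPM in ascorbate mice 28 and 30, 9.26 CPM in the primary mouse and 12.6, 12.8 and 13.4 CPM in PBS knockdown mice 16, 17 and 19. The level in mouse 21 lies close to those of the knockdown mice, so the label of that mouse is not borne out by its CPM. CPM are the count of a gene scaled to a library of fixed size, with the library total taken after TMM scaling. The cell label was checked against defining markers: Runx1t1, part of the AE9a fusion, was at 12.6 to 37.8 FPKM in the 8 libraries, whereas the granulocyte precursor genes Mpo and Elane averaged 0.410 and 0.183 FPKM, and Ptprc, which encodes the leukocyte antigen CD45, 0.271 FPKM. Not all progenitor and leukaemia markers were low: Kit averaged 12.4 FPKM (6.04 to 23.2 FPKM), and Runx1, also part of the fusion, was at 198 to 307 CPM. The erythroid factors Gata1 and Klf1 averaged 117 and 132 FPKM, and the summed level of 9 erythroid markers was 4024 to 12329 CPM. In bulk RNA, fewer cells of a type and less RNA per cell cannot be told apart.

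Of the 10 factors, only Spi1 and Myb were highly expressed. FPKM values, which are per length and thus allow genes to be ordered, averaged 41.5 for Spi1 and 33.2 for Myb over the 8 libraries. Cebpb followed with 6.90 FPKM and Id2 with 1.51 FPKM, and these 4 genes held the top 4 places in every library. The other 6 factors averaged under 1 FPKM: Irf8 0.183, Klf4 0.148, Cebpa 0.141, Gfi1 0.0225, Cebpd 0.0138 and Cebpe 0.0113. Levels of Irf8, Klf4 and Cebpa overlapped across libraries, as did those of Gfi1, Cebpd and Cebpe, so no order is read within either trio. Against the tested genes, the mean FPKM of Spi1 lay at percentile 89.3, that of Myb at 86.3, that of Cebpb at 54.7 and that of Id2 at 30.6.

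**Figure D1:**
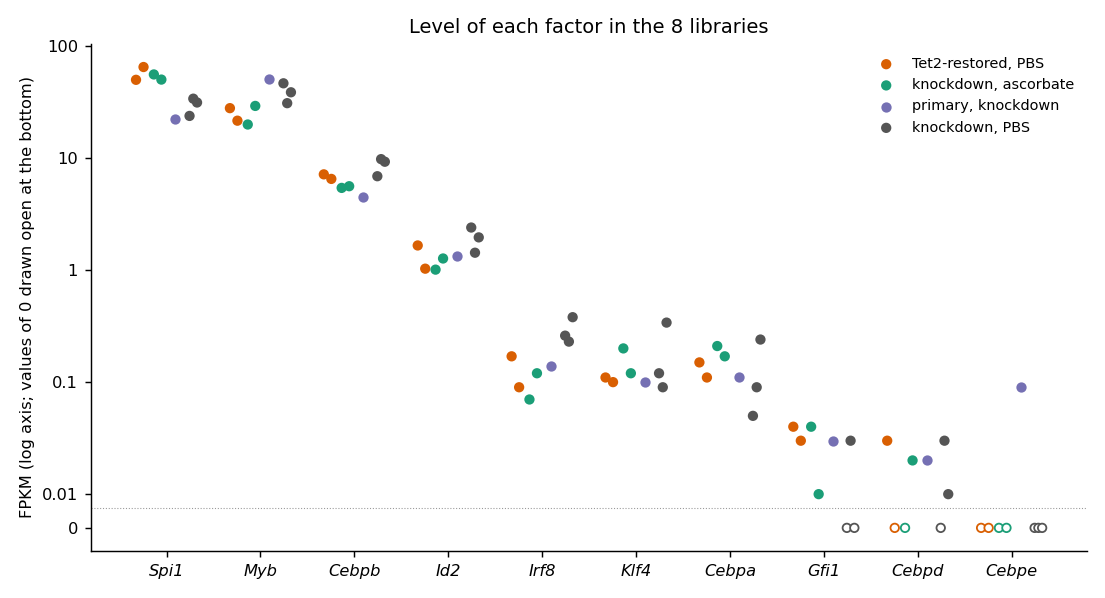
FPKM (log axis) of the 10 factors, 1 point per library, coloured by group; values of 0 are drawn open at the bottom. Spi1 and Myb stand at about the same height, Cebpb and Id2 below them, and the other 6 factors lie under 1 FPKM in each library.

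Spi1 (chromosome 2, 91082390 to 91115756, plus strand, GRCm38) was higher in both treated groups than under PBS knockdown. Its level was 139 and 177 CPM in restored mice 21 and 23, 152 and 137 CPM in ascorbate mice 28 and 30, 59.6 CPM in the primary mouse, and 64.4, 92.5 and 85.1 CPM in PBS knockdown mice 16, 17 and 19. Both treated groups lie above all 3 PBS knockdown libraries, and the primary library lies below them. The group means were 158 ± 26.9 CPM in restored mice (SD, n = 2), 145 ± 10.5 CPM in ascorbate mice (SD, n = 2) and 80.7 ± 14.5 CPM in PBS knockdown mice (SD, n = 3). No other annotated gene shares exonic bases with Spi1.

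Under ascorbate, Spi1 rose by a log2 fold change of 0.84 (SE 0.19, edgeR adjusted p 0.0477, higher in 2 of 2 ascorbate libraries than in any PBS knockdown library). It was the only one of the 10 factors called, where 2.86% of the 12137 tested genes were called in either direction and 1.09% were called higher. This call sits at the threshold of 0.05: over 16 alternatives the log2 fold change stayed between 0.70 and 0.94 while the adjusted p ran from 0.000597 to 0.235, and 7 of them passed. Leaving out PBS knockdown mouse 16, 17 or 19 gave 0.136, 0.0665 and 0.129, and leaving out ascorbate mouse 28 or 30 gave 0.235 and 0.140.

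In restored mice, Spi1 had a log2 fold change of 0.97 (SE 0.19, edgeR adjusted p 0.0502), so it was not called. No gene of the 12137 tested was called in that comparison (0%), 29.2% had an unadjusted p under 0.05, and 0.0502 was the smallest adjusted p of all. Spi1 (edgeR p 0.000466) ranked 102 by p and shared that value with genes of smaller p, such as Fcer1a (edgeR p 2.12e-05). Without mouse 21, whose Tet2 level lies near the knockdown mice, the log2 fold change of Spi1 was 1.14 (adjusted p 0.0207), the only 1 of 7 fits with a library left out that passed. That fit leaves mouse 23 alone in its group, with the spread taken from the other groups, and calls 13.3% of all tested genes. Over the 16 alternatives the log2 fold change of Spi1 stayed between 0.78 and 1.14 and its adjusted p ran from 2.72e-05 to 0.313, and DESeq2's Wald test gave 0.000449. The restored and ascorbate groups differed by 0.13 in log2 (95% interval -0.27 to 0.54, edgeR adjusted p 0.793), a difference that turned to -0.062 without restored mouse 23. Both treated groups are set against the same 3 PBS knockdown libraries.

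The genes with profiles nearest to Spi1 over the 8 libraries, by root mean square difference of centred log2 CPM among 10895 genes, were Aldoart1 (0.098), Pym1 (0.10) and Mfsd5 (0.12), against a range of 1.56 in Spi1 itself.

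Myb (chromosome 10, 21124935 to 21160984, minus strand) was lower in both treated groups than under PBS knockdown and highest in the primary library. Its level was 257 and 194 CPM in restored mice 21 and 23, 180 and 265 CPM in ascorbate mice 28 and 30, 452 CPM in the primary mouse, and 418, 280 and 348 CPM in PBS knockdown mice 16, 17 and 19. All 4 treated libraries lie below the lowest PBS knockdown library, although mouse 30 with 265 CPM and mouse 17 with 280 CPM are close, and the primary library is the highest. Group means were 226 ± 44.0 CPM in restored mice (SD, n = 2), 223 ± 60.0 CPM in ascorbate mice (SD, n = 2) and 348 ± 69.0 CPM in PBS knockdown mice (SD, n = 3). The log2 fold change was -0.63 in restored mice (SE 0.23, edgeR adjusted p 0.114) and -0.65 under ascorbate (SE 0.23, adjusted p 0.135), so neither was called. Non-overlap in the lower direction was common: 24.5% of tested genes in restored mice and 23.5% under ascorbate.

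With no filter on low counts, both Myb values passed (adjusted p 0.0103 in restored mice and 0.00986 under ascorbate), while over all 16 alternatives the adjusted p reached 0.475 and 0.564. An offset for transcript length, which is 9028 bases for Myb as recovered from count over FPKM, moved the log2 fold change in restored mice to -0.34. Myb shares 559 exonic bases with Gm26577 on the opposite strand, whose reads cannot be separated without a stated strand setting.

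Spi1 and Myb changed places between groups on the FPKM scale, a description chosen after the values were seen. The ratio of Spi1 to Myb FPKM was 1.79 and 3.01 in restored mice 21 and 23, 2.80 and 1.72 in ascorbate mice 28 and 30, 0.437 in the primary mouse, and 0.511, 1.10 and 0.811 in PBS knockdown mice 16, 17 and 19. Spi1 thus exceeded Myb in all 4 treated libraries and in PBS knockdown mouse 17, and Myb exceeded Spi1 in the other PBS knockdown libraries and in the primary one.

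**Figure D2:**
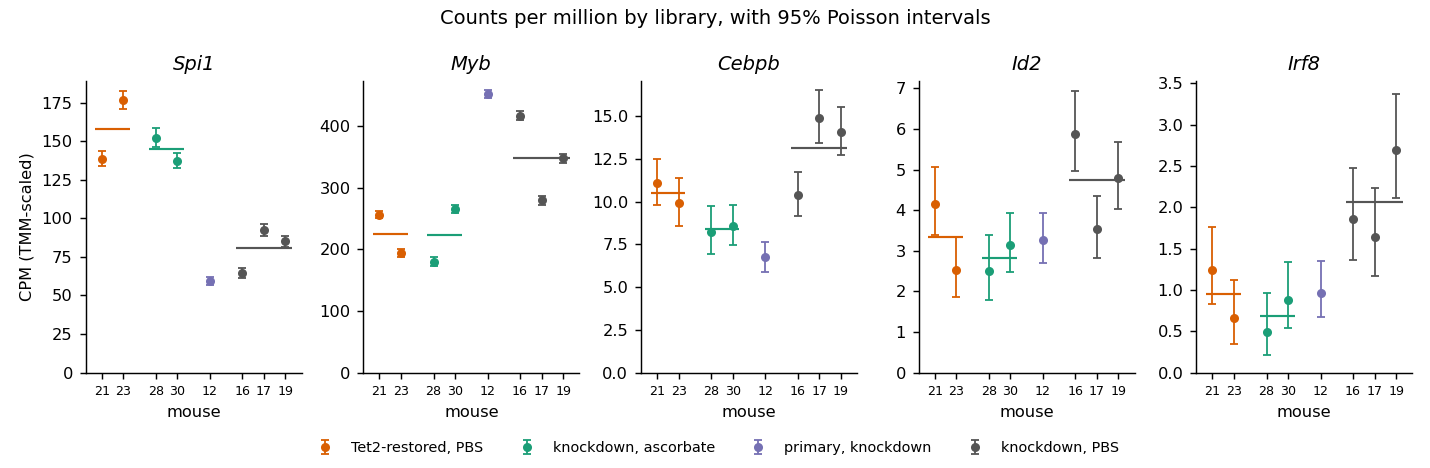
CPM of the 5 most abundant factors by mouse; bars are 95% Poisson intervals of the count, horizontal lines are group means, and each panel has its own axis from 0. Spi1 stands higher and Myb lower in the 4 treated libraries (mice 21, 23, 28 and 30) than in PBS knockdown mice 16, 17 and 19.

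Of the 4 C/EBP genes on the list, only Cebpb (chromosome 2, 167688915 to 167690418, plus strand) averaged above 1 FPKM. It stood at 11.1 and 9.89 CPM in restored mice 21 and 23, 8.25 and 8.57 CPM in ascorbate mice 28 and 30, 6.73 CPM in the primary mouse, and 10.4, 14.9 and 14.0 CPM in PBS knockdown mice 16, 17 and 19. The ascorbate libraries and the primary library lie below the PBS knockdown range, and the restored libraries overlap it at mouse 16. The log2 fold change was -0.32 in restored mice (SE 0.23, edgeR adjusted p 0.377) and -0.65 under ascorbate (SE 0.24, adjusted p 0.143). In the primary library it was -0.96 (SE 0.32, adjusted p 0.366), the smallest unadjusted p of the factors in that comparison (0.0128). Cebpb shares 312 exonic bases with Tmem189 on the opposite strand, out of 1504 bases in its annotated exon.

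Cebpa, the gene for the factor that commits progenitors to granulocytes, was near the limit of detection. It had 10 and 6 counts in restored mice 21 and 23, 9 and 11 in ascorbate mice 28 and 30, 10 in the primary mouse, and 3, 6 and 18 in PBS knockdown mice 16, 17 and 19. The groups overlap, and the log2 fold changes of 0.071 in restored mice (95% interval -1.34 to 1.48, edgeR adjusted p 0.957) and 0.54 under ascorbate (95% interval -0.83 to 1.91, adjusted p 0.664) leave wide room at this depth. The sign of the first of these turned when mouse 16, 17 or 21 was left out (-0.32, -0.11 and -0.17).

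Cebpd and Cebpe were not tested, because their counts were too low. Cebpd had 3 and 0 counts in restored mice 21 and 23, 0 and 2 in ascorbate mice 28 and 30, 2 in the primary mouse, and 0, 3 and 1 in PBS knockdown mice 16, 17 and 19. It too overlaps a gene on the other strand, Spidr, over 562 exonic bases. Cebpe, the late granulocyte factor, had 0 counts in all 7 secondary libraries, which together allow up to 0.0186 CPM, and 4 counts in the primary mouse (0.114 CPM, 95% Poisson interval 0.0309 to 0.291). These intervals and limits cover counting error only.

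The repressor gene Gfi1 was likewise nearly silent. It had 3 and 2 counts in restored mice 21 and 23, 2 and 1 in ascorbate mice 28 and 30, 3 in the primary mouse, and 0, 2 and 0 in PBS knockdown mice 16, 17 and 19, and it was not tested. Its relative Gfi1b, whose repressor acts in erythroid and megakaryocyte cells, averaged 186 FPKM where Gfi1 averaged 0.0225 FPKM.

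Irf8 (chromosome 8, 120736358 to 120756694, plus strand), the monocyte and dendritic cell factor, was low throughout. It stood at 1.24 and 0.656 CPM in restored mice 21 and 23, 0.489 and 0.878 CPM in ascorbate mice 28 and 30, 0.965 CPM in the primary mouse, and 1.85, 1.64 and 2.69 CPM in PBS knockdown mice 16, 17 and 19. Every other library lies below the lowest PBS knockdown library. The log2 fold change was -1.11 in restored mice (SE 0.49, edgeR adjusted p 0.163), -1.57 under ascorbate (SE 0.50, adjusted p 0.111) and -1.09 in the primary library (SE 0.62, adjusted p 0.657). None was called, and these values rest on 43 counts over the restored libraries, 29 over the ascorbate libraries, 34 in the primary library and 161 over the PBS knockdown libraries.

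Klf4, which acts with IRF8 in monocytes, had 8 and 6 counts in restored mice 21 and 23, 10 and 9 in ascorbate mice 28 and 30, 11 in the primary mouse, and 9, 7 and 29 in PBS knockdown mice 16, 17 and 19. Mouse 19 stands apart, and the other libraries lie close together. The log2 fold change was -0.83 in restored mice (SE 0.69, edgeR adjusted p 0.445) and -0.23 under ascorbate (SE 0.67, adjusted p 0.856). Mouse 19 was also the highest library for Irf8 and for Cebpa, and had the highest sum of 8 monocyte markers, 28.1 CPM, against 18.3 to 21.9 CPM in the other PBS knockdown libraries. The part of those cells in the levels was not tested.

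Id2, whose protein holds E proteins off DNA and is needed for several dendritic and lymphoid cell types, stood at 4.16 and 2.52 CPM in restored mice 21 and 23, 2.50 and 3.14 CPM in ascorbate mice 28 and 30, 3.27 CPM in the primary mouse, and 5.89, 3.53 and 4.80 CPM in PBS knockdown mice 16, 17 and 19. The ascorbate libraries and the primary library lie below the PBS knockdown range, while restored mouse 21 lies within it. The log2 fold change was -0.50 in restored mice (SE 0.36, edgeR adjusted p 0.379) and -0.75 under ascorbate (SE 0.37, adjusted p 0.249).

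Myb, Cebpb, Irf8 and Id2 were thus lower in both ascorbate libraries than in any PBS knockdown library, none of them past the threshold. Among all tested genes, 23.5% lay wholly lower in this way, and 45.9% did not overlap in either direction. The 250 bases before the RefSeq start (GRCm38.p6) are shown for those of the 4 whose window held a searched motif, with motif matches in capitals. They are Myb at chr10:21160985-21161234 on the minus strand, Cebpb at chr2:167688665-167688914 on the plus strand and Irf8 at chr8:120736108-120736357 on the plus strand, each 5′ to 3′.
Myb: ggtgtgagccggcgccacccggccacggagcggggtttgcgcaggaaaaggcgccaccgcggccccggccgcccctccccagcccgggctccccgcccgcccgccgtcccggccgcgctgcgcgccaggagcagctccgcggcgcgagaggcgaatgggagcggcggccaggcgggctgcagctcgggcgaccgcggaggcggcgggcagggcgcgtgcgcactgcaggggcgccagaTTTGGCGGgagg
Cebpb: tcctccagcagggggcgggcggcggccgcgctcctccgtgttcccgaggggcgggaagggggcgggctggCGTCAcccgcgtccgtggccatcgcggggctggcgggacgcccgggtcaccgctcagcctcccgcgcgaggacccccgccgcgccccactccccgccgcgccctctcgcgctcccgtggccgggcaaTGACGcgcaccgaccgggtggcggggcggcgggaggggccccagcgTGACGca
Irf8: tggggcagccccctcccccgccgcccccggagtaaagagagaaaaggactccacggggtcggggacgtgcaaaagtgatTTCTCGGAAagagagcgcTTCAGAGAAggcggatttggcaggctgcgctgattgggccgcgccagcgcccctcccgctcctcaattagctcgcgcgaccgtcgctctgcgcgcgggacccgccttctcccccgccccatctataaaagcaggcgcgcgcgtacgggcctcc
The capitals in Myb mark an E2F site (TTTGGCGG) at -12 to -5 from the start, a motif found on either strand in 0.444% of 32851 promoter windows of the same length. Those in Cebpb mark 3 cores of the cAMP response element (TGACG, or CGTCA on the other strand), found in 17.8% of windows. Those in Irf8 mark 2 interferon gamma activated sites (TTCNNNGAA) at -171 to -163 and -153 to -145, found in 7.02% of windows. The windows of the 7 factors with a RefSeq entry held no PU.1 core (GAGGAA, 23.3% of windows), and a C/EBP site (TTNNGCAA, 9.56%) was found only in that of Gfi1. These matches describe letters and are not evidence of binding.

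Across the list, 7 of the 10 factors had counts high enough to be tested in each of the 4 comparisons. In restored mice 0 of the 7 were called by edgeR and 3 had an unadjusted p under 0.05 (Spi1, Myb and Irf8), while DESeq2 called 1 and limma none; over all tested genes 29.2% had an unadjusted p under 0.05 and DESeq2 called 15.4%. Against PBS knockdown, the ranges of 1 factor lay wholly higher and those of 2 wholly lower in restored mice, beside 24.9% and 24.5% of all tested genes (49.3% either way). Under ascorbate 1 was called (Spi1) and 4 had an unadjusted p under 0.05, where 23.6% of all tested genes did and 1.77% were called lower. There 1 factor lay wholly higher and 4 wholly lower, beside 22.4% and 23.5% of all genes (45.9% either way), with only 7 factors counted. Between restored and ascorbate mice 0 were called by edgeR, DESeq2 or limma and 0 had an unadjusted p under 0.05, against 16.2% of all genes, with 0.00824% of genes called. The libraries of 1 factor lay wholly higher and those of 2 wholly lower, beside 22.8% and 22.1% of all genes (44.8% either way). Intervals there remain wide for the low genes, such as -0.61 to 1.53 in log2 for Irf8, so a difference is not shown to be absent.

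**Figure D3:**
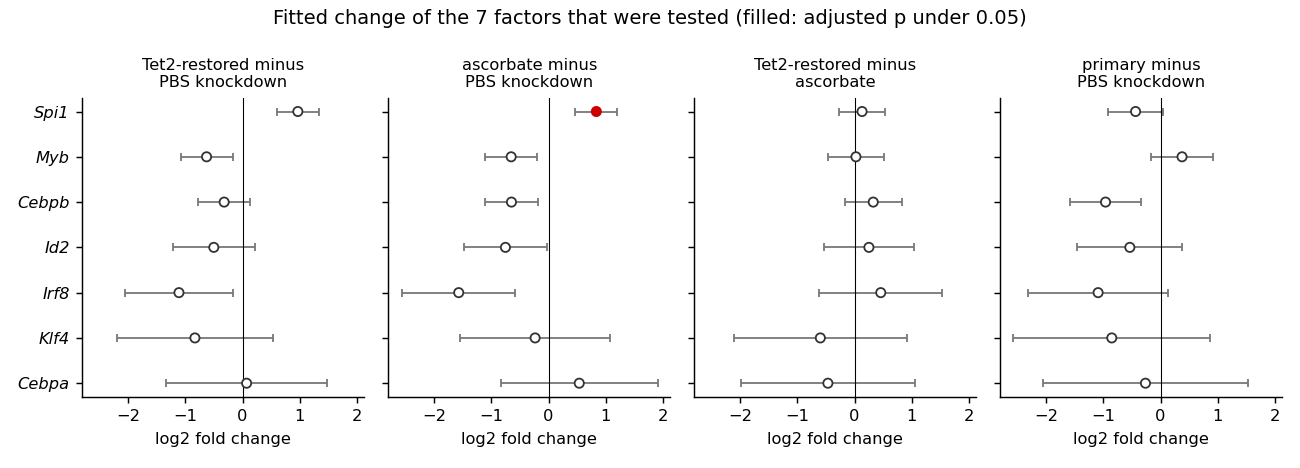
Log2 fold change of the 7 tested factors in the 4 comparisons, with 95% intervals; a filled point has an edgeR adjusted p under 0.05. Spi1 under ascorbate (0.84) is the only filled point, and the low genes Klf4 and Cebpa have the widest intervals.

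For the primary mouse against the secondary PBS knockdown mice, all 8 libraries entered 1 fit, which takes the spread of the unreplicated primary library from the other groups. Spi1 had a log2 fold change of -0.44 (SE 0.25, edgeR adjusted p 0.657) and Myb of 0.38 (SE 0.28, adjusted p 0.721), and 0 of the 7 factors were called, where 0.115% of 13024 genes were (0.0691% higher and 0.0461% lower). Cebpb alone had an unadjusted p under 0.05, as did 9.08% of all genes, and DESeq2 called none of the factors. The primary library lay above the PBS knockdown range for 1 factor and below it for 4, and did so for 31.8% and 29.7% of all tested genes (61.5% either way).

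Within their families, the low factors had abundant relatives. Of the IRF genes, Irf7, which drives type I interferon genes, averaged 95.9 FPKM, Irf9 29.2 FPKM and Irf2 13.1 FPKM, against 0.183 FPKM for Irf8. Of the KLF genes, erythroid Klf1 averaged 132 FPKM, Klf6 43.9 FPKM and Klf13 22.8 FPKM, against 0.148 FPKM for Klf4. Within the C/EBP family, Ddit3, which encodes the stress factor CHOP, averaged 20.6 FPKM and Cebpg 11.5 FPKM, above Cebpb with 6.90 FPKM. Spi1 at 41.5 FPKM stood among other ETS genes, between Elf1 with 54.4 FPKM and Fli1 with 40.2 FPKM, while its close relatives Spib and Spic averaged 0.138 and 0.216 FPKM. The ranges of Spi1, Elf1 and Fli1 overlap. Id1 averaged 17.1 FPKM, above Id2 with 1.51 FPKM, and Myb was the most abundant of its family, with Mybl2 at 9.67 FPKM.

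**Figure D4:**
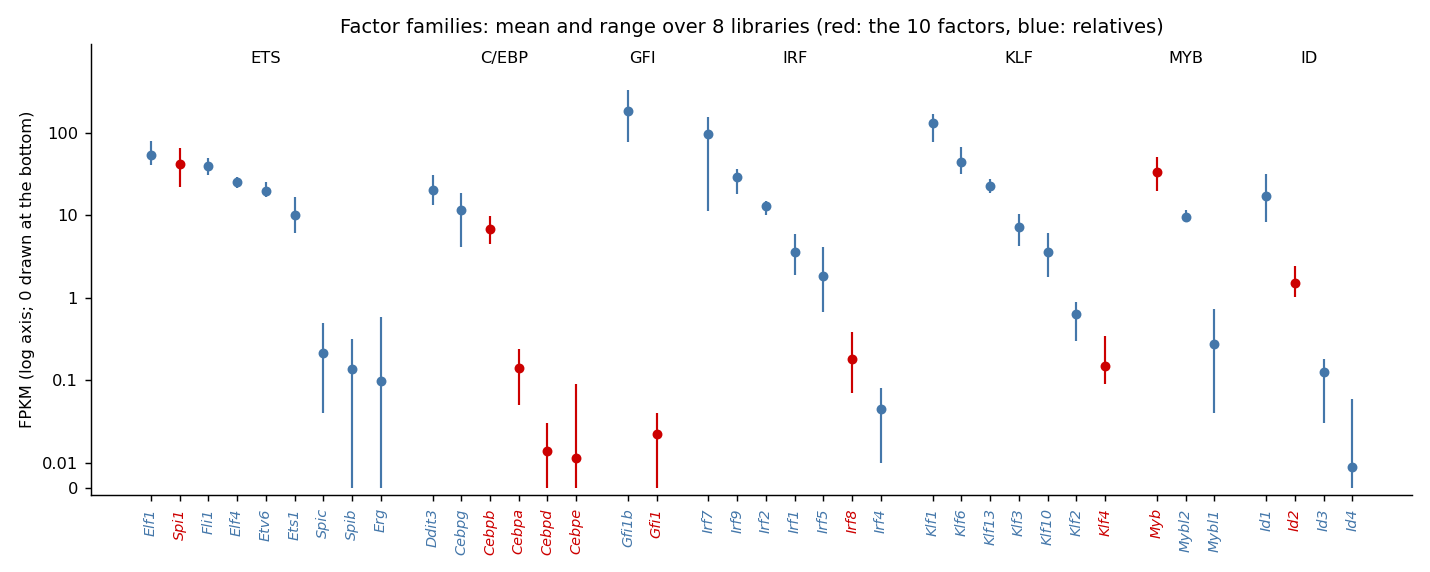
Mean FPKM (point, log axis) and range over the 8 libraries (line) of the 10 factors, in red, and 28 relatives, in blue, grouped by family. Gfi1b (186 FPKM), Irf7 (95.9 FPKM) and Klf1 (132 FPKM) lie far above Gfi1, Irf8 and Klf4, while Spi1 and Myb are among the highest of theirs.

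Of the 28 relatives, 24 were tested among the secondary libraries, and Gfi1b was the only one called. That call was made under ascorbate, where 2.86% of all tested genes were called in either direction. Gfi1b was at 626 and 328 CPM in restored mice 21 and 23, 146 and 161 CPM in ascorbate mice 28 and 30, 202 CPM in the primary mouse, and 425, 431 and 444 CPM in PBS knockdown mice 16, 17 and 19. The ascorbate libraries and the primary library lie below all the PBS knockdown libraries, and the restored libraries lie on either side of them. It fell under ascorbate by 1.51 on the log2 scale (SE 0.24, edgeR adjusted p 0.0272). The call was lost without mouse 16, 17, 19, 28 or 30 (adjusted p 0.0978, 0.0518, 0.0629, 0.140 and 0.126), while the log2 fold change stayed between -1.62 and -1.43 over 16 alternatives. Restored against ascorbate mice differed by 1.65 in log2 (SE 0.26, adjusted p 0.0875).

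Other relatives were close to the threshold in restored mice. Ddit3 was at 45.8 and 53.1 CPM in restored mice 21 and 23, 38.9 and 46.9 CPM in ascorbate mice 28 and 30, 23.1 CPM in the primary mouse, and 26.7, 28.2 and 22.9 CPM in PBS knockdown mice 16, 17 and 19. Both treated groups lie above the others, with log2 fold changes of 0.93 in restored mice (SE 0.18, edgeR adjusted p 0.0502) and 0.72 under ascorbate (SE 0.18, adjusted p 0.0614). The value of 0.0502 is the same tied adjusted p that Spi1 had. Cebpg, a C/EBP protein without an activation domain, had a log2 fold change of -1.26 in restored mice (SE 0.33, adjusted p 0.0638). In the relatives as a whole the median log2 fold change was -0.13 in restored mice and -0.051 under ascorbate, beside -0.0020 and -0.012 over all tested genes. In restored mice 0 of 24 were called by edgeR, 7 had an unadjusted p under 0.05 and DESeq2 called 4, close to the shares over all tested genes (29.2% and 15.4%). Of the 24, edgeR called 1 under ascorbate, 10 had an unadjusted p under 0.05 and DESeq2 called 6. The shares of all tested genes there were 2.86%, 23.6% and 10.5%.

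In the primary library, 1 of 25 tested relatives was called, beside 0.115% of 13024 tested genes (0.0461% lower). Of the 25, 7 had an unadjusted p under 0.05 and DESeq2 called 2, beside 9.08% and 1.6% of all tested genes. Irf7 was at 42.1 CPM in the primary mouse, 444 and 346 CPM in restored mice 21 and 23, 468 and 250 CPM in ascorbate mice 28 and 30, and 344, 450 and 589 CPM in PBS knockdown mice 16, 17 and 19. All 7 secondary libraries lie far above the primary one. It fell by 3.45 on the log2 scale (SE 0.47, edgeR adjusted p 0.0413). The adjusted p was 0.112 without mouse 17, 0.0948 without mouse 21 and 0.0968 without mouse 23, and the log2 fold change stayed between -3.59 and -3.21 over 16 alternatives.

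Genes that these factors are known to act on were taken as lists and are described by counts and medians. Of 20 receptor and oxidase genes that PU.1 and C/EBP proteins activate, 19 were tested and 0 were called in any comparison by edgeR. In restored mice 6 had an unadjusted p under 0.05 and DESeq2 called 4, beside 29.2% and 15.4% of all tested genes. Under ascorbate the numbers were 4 and 1, beside 23.6% and 10.5% of all genes. Between restored and ascorbate mice they were again 4 and 1 (16.2% and 3.43% of all genes), and in the primary library 2 and 0 (9.08% and 1.6%). Their median log2 fold change was 0.37 in restored mice, 0.18 under ascorbate and -0.88 in the primary library. Csf2rb, the shared chain of the receptors for GM-CSF, IL-3 and IL-5, had 996 and 1108 CPM in restored mice 21 and 23, 745 and 541 CPM in ascorbate mice 28 and 30, 589 CPM in the primary mouse, and 625, 640 and 629 CPM in PBS knockdown mice 16, 17 and 19. It was higher in the restored libraries, with a log2 fold change of 0.74 (SE 0.16, edgeR adjusted p 0.0509), and the ascorbate libraries lie on either side of PBS knockdown. Ncf4, an oxidase gene, had 0.84 in restored mice (SE 0.19, adjusted p 0.0520) and 0.75 under ascorbate (SE 0.19, adjusted p 0.0614). Ncf1 had 1.76 in restored mice (SE 0.46, adjusted p 0.0638). Tlr4 went the other way there, with -2.87 (SE 0.88, adjusted p 0.0800) on 3 and 1 counts in mice 21 and 23. Of the 19, 12 had a positive and 7 a negative log2 fold change in restored mice. Fcgr3, an Fc receptor gene, was at 40.3 CPM in restored mouse 23 and at 0.795 to 3.17 CPM in the other 7 libraries.

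Of 17 granule and late neutrophil genes, Cebpe among them, 12 were tested among the secondary libraries. Their median log2 fold changes were 0.86 in restored mice and 1.17 under ascorbate. Several of these genes had few counts. In PBS knockdown mice 16, 17 and 19, Camp had 0, 8 and 3 counts and S100a8 had 2, 42 and 7. Prtn3, a serine protease of primary granules, was at 5.73 and 8.78 CPM in restored mice 21 and 23, 8.19 and 7.52 CPM in ascorbate mice 28 and 30, 1.19 CPM in the primary mouse, and 1.81, 2.87 and 2.72 CPM in PBS knockdown mice 16, 17 and 19. All 4 treated libraries lie above the rest. It rose under ascorbate by a log2 fold change of 1.66 (SE 0.32, edgeR adjusted p 0.0356), the 1 call of the list there. Of the 12, 3 had an unadjusted p under 0.05 under ascorbate and DESeq2 called 1. Over all tested genes these shares were 2.86% called by edgeR, 23.6% unadjusted and 10.5% called by DESeq2. Prtn3 had 1.55 in restored mice (SE 0.32, edgeR adjusted p 0.0502, the tied value that Spi1 also had). In restored mice 0 of 12 were called, 2 had an unadjusted p under 0.05 and DESeq2 called 2 (29.2% and 15.4% of all tested genes). The call under ascorbate was lost without mouse 16, 17, 19, 28 or 30 (adjusted p 0.116, 0.0661, 0.0968, 0.170 and 0.130). In the primary library 0 of 15 granule genes were called, 10 had an unadjusted p under 0.05 and DESeq2 called 2, beside 9.08% and 1.6% of all tested genes, and the median log2 fold change was 3.13. The sum of 10 mature neutrophil markers was 43.6 CPM in that library, against 1.25 to 8.66 CPM under PBS knockdown. That sum was 6.72 to 12.1 CPM in restored mice and 8.12 to 13.1 CPM under ascorbate, and its part in the granule values was not tested. Camp, Ltf, Mmp8, Ngp, S100a8 and S100a9 are in both lists. Ly6g, a defining neutrophil marker, was at 0 in the restored and the PBS knockdown libraries, and Stfa2l1 in the ascorbate and the PBS knockdown libraries.

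Of 20 monocyte and dendritic cell genes that IRF8 and KLF4 activate, Id2 among them, 18 were tested and 0 were called in any comparison by edgeR. An unadjusted p under 0.05 was found for 2 in restored mice, 4 under ascorbate, 2 between these groups and 3 in the primary library, beside 29.2%, 23.6%, 16.2% and 9.08% of all tested genes. DESeq2 called 0, 1, 0 and 0, beside 15.4%, 10.5%, 3.43% and 1.6%. The median log2 fold change was -0.36 in restored mice, -0.087 under ascorbate and -1.19 in the primary library. The list was mixed: 6 genes had a positive and 12 a negative log2 fold change in restored mice. Those numbers were 8 and 10 under ascorbate, and 3 and 15 in the primary library. In restored mice Maf had -1.80 (SE 0.55, edgeR adjusted p 0.0786) and Cst3 0.53 (SE 0.18, adjusted p 0.0973). The sum of 16 macrophage markers, a separate list, was 19.1 and 59.1 CPM in restored mice and 46.4 and 49.4 CPM in ascorbate mice. It was 84.0 CPM in the primary mouse and 120 to 139 CPM under PBS knockdown. Slc40a1, an iron exporter gene, made up much of that sum, with 56.2 CPM in the primary mouse and 90.6 CPM in PBS knockdown mouse 16. Over the other 15 markers the sums were 37.5 and 14.9 CPM in restored mice 21 and 23, 28.8 and 28.3 CPM in ascorbate mice 28 and 30, 27.8 CPM in the primary mouse, and 48.9, 78.7 and 89.1 CPM in PBS knockdown mice 16, 17 and 19. The primary library then lies among the treated ones, and all 5 lie below the PBS knockdown libraries. In both treated groups and in the primary library 14 of 14 tested macrophage markers had a negative log2 fold change against PBS knockdown. Under ascorbate 3 of the 14 were called lower, Vcam1, Mertk and Mrc1, beside 1.77% of all tested genes. There 9 had an unadjusted p under 0.05 and DESeq2 called 5, beside 23.6% and 10.5% of all tested genes. The call of Vcam1 was lost without mouse 16, 19, 28 or 30 (adjusted p 0.0694, 0.0566, 0.102 and 0.126), and Mertk and Mrc1 passed in 2 of 7 fits with a library left out. In restored mice 0 of the 14 were called by edgeR, 10 had an unadjusted p under 0.05 and DESeq2 called 8, beside 29.2% and 15.4% of all tested genes. Marco was at 0 in the ascorbate and primary libraries. Vcam1 was at 0.959 to 2.39 CPM in the 4 treated libraries and at 10.4 to 15.4 CPM under PBS knockdown. Against PBS knockdown, Irf8 lies in the direction of these markers in the treated groups and in the primary library, whereas Spi1 lies opposite to them in the treated groups and with them in the primary library. The part of such cells in either was not tested.

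Of 14 progenitor genes that MYB activates, 11 were tested among the secondary libraries, with median log2 fold changes of -0.30 in restored mice and -0.31 under ascorbate. Myc, a driver of growth, was at 386 and 217 CPM in restored mice 21 and 23, 182 and 154 CPM in ascorbate mice 28 and 30, 244 CPM in the primary mouse, and 351, 341 and 423 CPM in PBS knockdown mice 16, 17 and 19. The ascorbate libraries lie lowest, and the restored mice differ from each other. Myc fell under ascorbate by 1.16 on the log2 scale (SE 0.24, edgeR adjusted p 0.0414), the only call of this list, and the call was lost without mouse 16, 17, 19, 28 or 30 (adjusted p 0.114, 0.0661, 0.106, 0.163 and 0.157). Cdk6, a cell cycle kinase, had 439 and 464 CPM in restored mice 21 and 23, 480 and 522 CPM in ascorbate mice 28 and 30, 1046 CPM in the primary mouse, and 773, 580 and 656 CPM in PBS knockdown mice 16, 17 and 19. Like Myb, it was lower in all 4 treated libraries and highest in the primary one, with a log2 fold change of -0.57 in restored mice (SE 0.16, adjusted p 0.0671) and -0.43 under ascorbate (SE 0.16, adjusted p 0.147). Gata2, also on this list, went the other way in restored mice, with a log2 fold change of 1.54 (SE 0.42, edgeR adjusted p 0.0696). Of the 11, 4 had a positive and 7 a negative log2 fold change in restored mice, and 3 and 8 under ascorbate. In restored mice 0 of 11 were called by edgeR and 3 had an unadjusted p under 0.05, beside 29.2% of all tested genes. DESeq2 called 3 there, 1 higher and 2 lower, beside 15.4% of all tested genes. Of the 11, edgeR called 1 under ascorbate, 2 had an unadjusted p under 0.05 and DESeq2 called 1. The shares of all tested genes there were 2.86%, 23.6% and 10.5%.

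Of 26 cofactors and regulators, 24 were tested, with median log2 fold changes of -0.024 in restored mice and 0.038 under ascorbate. In restored mice 0 of the 24 were called by edgeR, 6 had an unadjusted p under 0.05 and DESeq2 called 0, beside 29.2% and 15.4% of all tested genes. Of the 24, edgeR called 1 under ascorbate, 4 had an unadjusted p under 0.05 and DESeq2 called 1. The shares of all tested genes there were 2.86%, 23.6% and 10.5%. Jun, whose AP-1 protein binds PU.1 and C/EBP proteins, was at 116 and 108 CPM in restored mice 21 and 23, 42.0 and 23.7 CPM in ascorbate mice 28 and 30, 130 CPM in the primary mouse, and 69.6, 111 and 70.2 CPM in PBS knockdown mice 16, 17 and 19. It fell under ascorbate by 1.36 on the log2 scale (SE 0.29, edgeR adjusted p 0.0439), the only call of this list, and the call was lost without mouse 16, 17, 19, 28 or 30 (adjusted p 0.108, 0.0707, 0.0860, 0.102 and 0.157). Restored against ascorbate mice differed by 1.78 in log2 (SE 0.31, adjusted p 0.0916). Runx1, which also gives part of the fusion and whose transgene reads are not separated, had log2 fold changes of 0.42 in restored mice (SE 0.14, adjusted p 0.0940) and 0.37 under ascorbate (SE 0.14, adjusted p 0.153).

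Of 16 factors of other blood lineages, 12 were tested among the secondary libraries, Gfi1b was the only one called under ascorbate, and the median log2 fold change was -0.17 in restored mice and -0.059 under ascorbate. In restored mice 0 of the 12 were called by edgeR, 2 had an unadjusted p under 0.05 and DESeq2 called 1, beside 29.2% and 15.4% of all tested genes. Of the 12, edgeR called 1 under ascorbate, 3 had an unadjusted p under 0.05 and DESeq2 called 2. The shares of all tested genes there were 2.86%, 23.6% and 10.5%. Gata2, the factor of progenitors and mast cells, had 50.3 and 55.8 CPM in restored mice 21 and 23, 14.9 and 41.0 CPM in ascorbate mice 28 and 30, 48.3 CPM in the primary mouse, and 16.9, 25.9 and 11.9 CPM in PBS knockdown mice 16, 17 and 19. The restored libraries lie above PBS knockdown and the ascorbate libraries overlap it, with a log2 fold change of 1.54 in restored mice (SE 0.42, edgeR adjusted p 0.0696). The sum of 10 mast cell markers, Gata2 among them, was 1248 and 1482 CPM over the restored mice, 839 and 1141 CPM over the ascorbate mice, 1504 CPM in the primary mouse and 520 to 650 CPM under PBS knockdown. Like Spi1, this sum was higher in every treated library than in any PBS knockdown library. The primary library had a high sum and a low Spi1 level. Between the ascorbate mice, Spi1 was higher in mouse 28 and the sum in mouse 30. Of the 10 markers, 9 had a positive log2 fold change under ascorbate, and Cd200r3 had -0.30. The part of mast cells in the level of Spi1 was not tested.

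**Figure D5:**
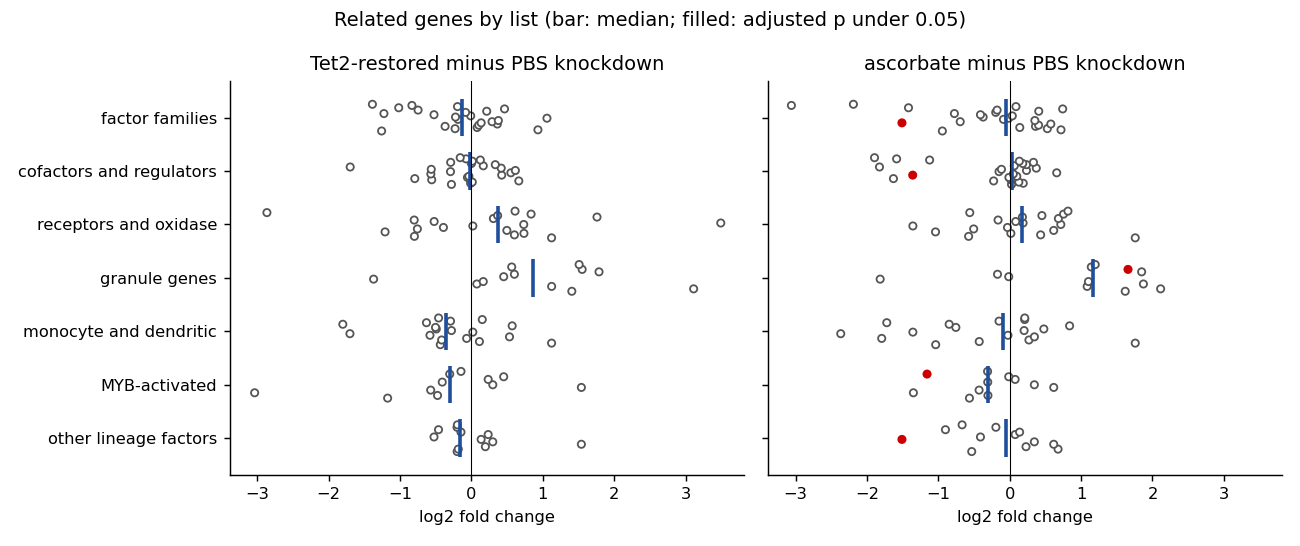
Log2 fold change of each tested gene (points) by list in restored and in ascorbate mice, both against PBS knockdown; vertical bars are list medians and filled points have an edgeR adjusted p under 0.05. Granule genes have the highest medians (0.86 and 1.17), though several of them had few counts. Filled points occur only under ascorbate: Gfi1b (in 2 lists), Jun, Prtn3 and Myc.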

How the data were processed

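Per the labels' protocols, mRNA was selected on oligo-dT beads before NEXTflex library preparation. STAR, featureCounts and DESeq2 were used with mm10 (GRCm38), per the submitters' processing notes; versions, settings and strand are not given in the sources used here. The authors deposited a table of raw counts by symbol and a table of FPKM rounded to hundredths, whose library scale follows DESeq2 size factors. In the deposited symbols 26 had become calendar dates, none of them a listed factor.

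Counts were tested in edgeR 4.0.16 under R 4.3.3 (quasi-likelihood, robust, TMM, filterByExpr with a minimum count of 10), with Benjamini-Hochberg adjustment over all genes tested and a threshold of 0.05. The 7 secondary libraries in 3 groups shared 1 fit (12137 genes), and the primary comparison used all 8 (13024 genes). SE is that of the log2 fold change, and 95% intervals of it are 1.96 SE either way. This normal multiplier is approximate with so few libraries, and the intervals can be too narrow. For Id2 under ascorbate the interval of -1.48 to -0.028 leaves out 0, while the edgeR unadjusted p is 0.0702. Levels are CPM on TMM-scaled totals (mean ± SD) with 95% Poisson intervals; a count of 0 allows up to 3 counts. Libraries hold no molecular identifiers, so these cover counting error only. Alternatives used DESeq2 1.42.0, limma 3.58.1 on log2(FPKM + 0.1) and log2(FPKM + 1), other scaling and filters, a length offset, and each library left out. P-values measure the spread between libraries of 1 mouse each, and the leukaemias may share donor cells, which the labels do not say.

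Gene positions and overlaps are from the GENCODE vM21 annotation of GRCm38, and promoters from RefSeq (GRCm38.p6), which matched 7 of the 10 factors. The factors, gene lists and naming rule were chosen with earlier results of these data known. The text names all 10 factors, the 3 nearest profiles to a called factor, and genes past the threshold on each non-marker list. The rule also allowed up to 4 genes of each such list with the smallest p in each comparison. Not all of these are named, so the other list genes were not picked by p alone. Relatives named for their FPKM level and the marker genes were chosen after their values were seen. The test was checked on simulated data.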

Additional observations from a re-analysis of the deposited data

How the results depend on the processing

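Over 418 values of single factors under alternative settings, 392 kept their direction and side of the threshold, 9 lost a call, 6 gained one and 11 changed sign. The number of factors called in restored mice (0) was 1 with DESeq2 size factors in edgeR, 1 with the DESeq2 Wald test, 2 with no filter on low counts (Spi1 and Myb), and 0 to 1 with a library left out. Under ascorbate (1) it was 0 with library totals, 0 in each of the 3 limma-trend settings on FPKM, 2 with no filter, and 0 to 1 with a library left out. Between restored and ascorbate mice it stayed 0 throughout, and in the primary comparison (0) it was 1 with limma-trend on log2(FPKM + 0.1) without a filter (Cebpe). Spi1 under ascorbate, the only factor call of the main fits, kept its sign throughout. The sign changes were Cebpa in restored mice (-0.051 with the length offset, -0.32 to 0.95 with single libraries left out, mouse 17 giving -0.11 and mouse 21 -0.17), Klf4 under ascorbate without mouse 30 (0.089; range -0.59 to 0.089), Cebpa in the primary comparison without mouse 19 (0.64; range -0.62 to 0.64), and, between restored and ascorbate mice, Irf8 (-0.075), Myb (-0.19) and Id2 (-0.16) without mouse 21, Spi1 without mouse 23 (-0.062) and Myb without mouse 28 (-0.23), where single libraries left out reached 0.97 for Irf8, 0.33 for Myb, 0.56 for Id2 and 0.29 for Spi1. The cause of these changes was not tested.

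Counts over all genes moved more. The DESeq2 Wald test called 1873, 1273, 416 and 208 genes in restored mice, under ascorbate, between these groups and in the primary comparison, and edgeR without a filter 2207, 1498, 582 and 467, against 0, 347, 1 and 15 in the main fits. In restored mice, DESeq2 size factors in edgeR gave 367 and leaving out mouse 21 gave 1692. Under ascorbate, limma-trend without a filter gave 0, only the groups compared 855, and single libraries left out 2 to 796. Between restored and ascorbate mice, single libraries left out gave 0 to 5, limma-trend 3 (0 without a filter), the length offset 3 and only the groups compared 0. In the primary comparison, limma-trend gave 8, 264 without a filter, and single libraries left out 6 to 45. With library totals the median log2 fold change of all genes under ascorbate was -0.12, against -0.012 with TMM, which changed the split of calls there to 83 higher and 300 lower, against 132 and 215 with TMM; Spi1 then had 0.72 (adjusted p 0.0645). The low counts of Cebpd, Cebpe and Gfi1 limit what can be said of them. No paired analysis was possible because the groups share no mouse numbers.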
